A study of Mus musculus with 2 samples.

Results

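Matrix metalloproteinases (MMPs), ADAMTS proteases and the tissue inhibitors of metalloproteinases (TIMPs) were read in mouse embryonic fibroblasts (MEFs) with and without *BCL11B*. Members were taken by symbol from the array's annotation, as *Mmp* or *Adamts* followed by a number and *Timp1* to *Timp4*, on probe sets that name 1 gene. This gave 37 genes on 70 probe sets (18 MMPs, 15 ADAMTSs and 4 TIMPs) of 18193 genes in all, and 27 of the 37 had a mean over both arrays of 5 or more on the log2 scale, the limit used for counts. The cells were primary C57BL/6 MEFs from embryonic day 12.5, wild type (*BCL11B*+/+) or *BCL11B*−/−, at passage 2. Both cultures had been in adipocyte differentiation medium for 12 h, with pioglitazone (10 μM), insulin (10 μg/ml), dexamethasone (1 μM), methylisobutylxanthine (0.5 mM) and 10% serum. By the study's methods the medium also held ascorbic acid. The knockout was carried by the whole embryo, and the number of embryos in each culture is not given in the sources used here. Each genotype was measured on 1 Affymetrix array, so differences (*BCL11B*−/− minus *BCL11B*+/+) are given with no p-value and are described by a rule of 1.5-fold. The deposited values are log2 expression, and a gene is its probe set with the highest mean.

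MMPs are secreted or membrane-bound zinc proteases that cut collagens and other matrix proteins. They are made as inactive proenzymes, are opened by plasmin, furin or each other, and are blocked by TIMPs. ADAMTS proteases are a secreted family that trims matrix proteoglycans such as aggrecan and versican, or removes the propeptides of fibrillar collagens, and TIMP3 is the TIMP known to block several of them. During adipogenesis preadipocytes exchange a fibronectin-rich matrix for a basement membrane, and membrane-type 1 MMP (*Mmp14*) is known for opening collagen around growing fat cells. The genes of interstitial collagenases and of the stromelysins *Mmp3* and *Mmp10* lie in 1 cluster. They are classical targets of AP-1, the FOS and JUN transcription factor.

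The promoters of *Mmp13*, *Mmp3* and *Mmp10* are shown first, since these are the 3 genes of that cluster with signal on the arrays. Each sequence is the 110 bases before the RefSeq start in GRCm38.p6, 5′ to 3′ on the plus strand, and capitals mark the AP-1 motif.
Mmp13 (chr9:7272404-7272513): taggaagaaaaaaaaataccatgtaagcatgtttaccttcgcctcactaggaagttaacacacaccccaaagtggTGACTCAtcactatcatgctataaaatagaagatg
Mmp3 (chr9:7445712-7445821): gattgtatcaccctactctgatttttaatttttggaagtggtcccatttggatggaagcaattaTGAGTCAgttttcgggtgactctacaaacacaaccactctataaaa
Mmp10 (chr9:7502232-7502341): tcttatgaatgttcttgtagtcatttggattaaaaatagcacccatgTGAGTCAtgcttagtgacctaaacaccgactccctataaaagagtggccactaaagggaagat

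The motif searched was TGAGTCA, which reads TGACTCA on the other strand, and no other motif was searched. Counted from the base before the start as −1, it lay at −35 to −29 in *Mmp13*, −46 to −40 in *Mmp3* and −63 to −57 in *Mmp10*. RefSeq promoter windows, from 250 bases before to 50 bases after the start, were matched for 32 of the 46 genes with such symbols in RefSeq. Of these, 7 held the motif, and the 7 are all in the cluster of 10 MMP genes on chromosome 9 (*Mmp13*, *Mmp12*, *Mmp1b*, *Mmp3*, *Mmp1a*, *Mmp10* and *Mmp7*). Over all RefSeq genes with such windows 5.95% held it (5.20% of all windows). The cluster genes are relatives by duplication, so their matches are not independent of each other, and a match is a description of letters and not a bound site.

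The arrays stood apart from each other in more than genotype. *Bcl11b* was 2.26- to 2.97-fold lower in *BCL11B*−/− MEFs on its probe sets. *Xist*, the RNA of the inactive X chromosome, differed by −5.99 and Y-linked genes were higher, by 1.08 for *Eif2s3y*. Of 11 measured macrophage markers 9 were at least 1.5-fold lower (log2 ratio of the summed linear levels −0.80 over the 12 listed, with *Aif1* under 5). As the mean of all probe sets, *Csf1r* (−0.53), *Laptm5* (−0.36) and *Ptprc* (−0.35) of these were short of 1.5-fold. *C1qb* was not (−0.82), and the rest have 1 probe set. *Ptprc* read 5.81 and 4.998, so it was counted through its level in *BCL11B*+/+ MEFs. Of 7 measured chondrocyte markers 5 were at least 1.5-fold higher (log2 ratio of the sums 0.94 over the 10 listed, with *Col11a2*, *Matn1* and *Matn3* under 5). Of these 5 only *Sox9* (0.64) was short of 1.5-fold as the mean of its probe sets (0.55). Smooth muscle markers were higher for 4 of 6 measured genes (log2 ratio of the sums 0.67), among them *Tagln* with 0.83. That ratio mostly reflects *Acta2*, the brightest of them (12.04 and 12.69). *Acta2* gave 0.65, but 0.19 as the mean of its 3 probe sets. Of the adipocyte list, *Plin1* was not analysed here. Adipocyte markers were lower for 2 of 5, *Lpl* with −0.97 and *Pparg* with −0.71. *Cebpa* gave −0.53, while *Adipoq* (0.56) and *Fabp4* (0.31, and 0.063 as the mean of 4 probe sets) were above 0. Their log2 ratio of the sums, −0.76, mostly reflects *Lpl*, by far the brightest of them (13.02 and 12.04). Of 6 mesothelial markers 1 was lower. Few markers of the last lists were measured, 1 of 8 for osteoblasts, 2 of 6 for endothelium and 1 of 6 for neutrophils, and none was past 1.5-fold. Of the osteoblast list, *Runx2*, *Bglap* and *Spp1* were not analysed here. For *BCL11B*−/− MEFs the study reported higher *Spp1* (osteopontin) on these arrays and higher *Runx2* by PCR. Fibroblast markers were bright on both arrays, from 10.07 to 14.06, and 2 of 8 were lower, *Dcn* and *Thy1*. The part of these cell types in the values of the proteases and TIMPs was not tested. Genotype, culture, sex of the embryos and array cannot be told apart. In such a mixed culture, fewer cells of a type and less RNA per cell cannot be told apart either.

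Of the 27 measured members, 1 was higher in *BCL11B*−/− MEFs by 1.5-fold or more (*Mmp13*), 3 were at least 1.5-fold lower (*Mmp3*, *Adamts1* and *Adamts5*) and 23 were neither. Over all 12331 measured genes 1.61% were higher, 1.75% were lower and 3.36% were past the rule either way, against 14.8% of the members. The median difference was −0.12 for 11 MMPs, −0.077 for 12 ADAMTSs and 0.089 for 4 TIMPs, beside 0 for all genes. None of the 4 genes past the rule reached 2-fold. As a yardstick of technical spread, the differences given by several probe sets of the same gene had a pooled SD of 0.145 (log2) across 5543 genes and of 0.139 over the 10 members with at least 2 probe sets past 5. This SD holds no variation between cultures.

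**Figure D1:**
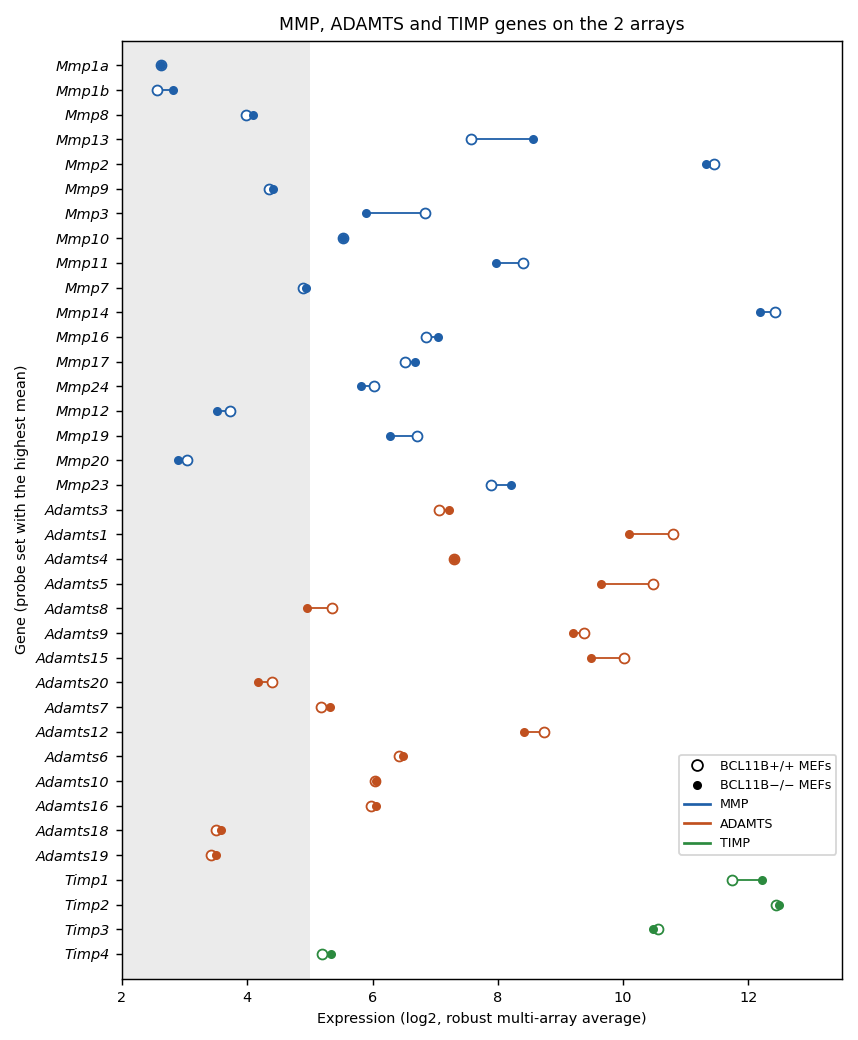
Expression of the 37 genes (vertical axis, by subgroup) on the log2 scale (horizontal axis). Open circles are the *BCL11B*+/+ array and filled circles the *BCL11B*−/− array, so there is no error bar, and the grey band holds values under 5. The longest lines are those of *Mmp13* (7.57 and 8.56, filled circle to the right) and *Mmp3* (6.83 and 5.89, filled circle to the left).

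Among the collagenases, *Mmp13* encodes collagenase 3, the main interstitial collagenase of mice, made by fibroblasts, osteoblasts and hypertrophic chondrocytes. It read 7.57 in *BCL11B*+/+ and 8.56 in *BCL11B*−/− MEFs, a log2 difference of 0.99 or 1.98-fold. It has 1 probe set, and its difference was the 46th highest of 12331. The chondrocyte markers *Col2a1* (1.29), *Col9a1* (1.11) and *Comp* (1.63) were higher on the same array, and their part in the *Mmp13* value was not tested. The other collagenases gave no usable signal. *Mmp8*, the neutrophil collagenase, read 3.97 and 4.09, *Mmp1a* 2.61 on both arrays, and *Mmp1b* 2.56 and 2.81.

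*Mmp3* encodes stromelysin 1, which cuts proteoglycans, fibronectin and basement membrane proteins and opens other proMMPs. It read 6.83 in *BCL11B*+/+ and 5.89 in *BCL11B*−/− MEFs, a difference of −0.94 or 1.92-fold lower. Its difference was the 73rd lowest, on 1 probe set. *Mmp3* and *Mmp13* thus differed in opposite directions, with 1.93 log2 units between their differences. *Mmp10*, stromelysin 2, read 5.52 on both arrays, with identical values. The 2 arrays held the same value for 328 of the 12331 genes (2.66%). *Mmp11*, stromelysin 3, which is opened by furin inside the cell, read 8.40 and 7.97, a difference of −0.43 on 1 probe set. *Mmp7*, matrilysin, stayed just under the limit with 4.89 and 4.94.

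The gelatinases cut denatured collagen and the collagen of basement membranes. *Mmp2*, the gelatinase of fibroblasts, was bright on both of its probe sets. They read 11.45 and 11.33 (−0.12) and 11.35 and 11.31 (−0.038), so the arrays differed by less than 1 SD of the probe sets. *Mmp9*, the gelatinase of neutrophils, macrophages and osteoclasts, lay between 4.27 and 4.41 on both probe sets and both arrays. *Mmp12*, the macrophage elastase, read 3.72 and 3.51. Both were thus under the limit on both arrays.

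The membrane-type MMPs sit on the cell surface and act at the cell's edge. *Mmp14*, which cuts fibrillar collagen and opens proMMP2, read 12.42 and 12.18 on its brightest probe set, a difference of −0.25. The other probe sets of *Mmp14* gave −0.49 and −0.28, so each of its 3 probe sets was lower and none reached 1.5-fold. *Mmp16* was the highest of the group with 0.19 (6.85 and 7.04), and its measured probe sets ran from −0.019 to 0.19. *Mmp17*, which is held by a lipid anchor, read 6.52 and 6.67, a difference of 0.15. *Mmp24*, best known from neurons, read 6.02 and 5.81, a difference of −0.21. None of the membrane-type genes reached 1.5-fold on any probe set.

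Of the remaining MMPs, *Mmp19* was lower with −0.43 (6.71 and 6.28) and −0.28 on its dimmer probe set. *Mmp23*, which lacks the usual cysteine switch and hemopexin domain, was higher with 0.31 (7.89 and 8.20), and with 0.095 on the probe set without a suffix. *Mmp20*, the enamel protease of teeth, gave 3.04 and 2.89. *Mmp15*, *Mmp21*, *Mmp25*, *Mmp27* and *Mmp28* were not analysed here.

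**Figure D2:**
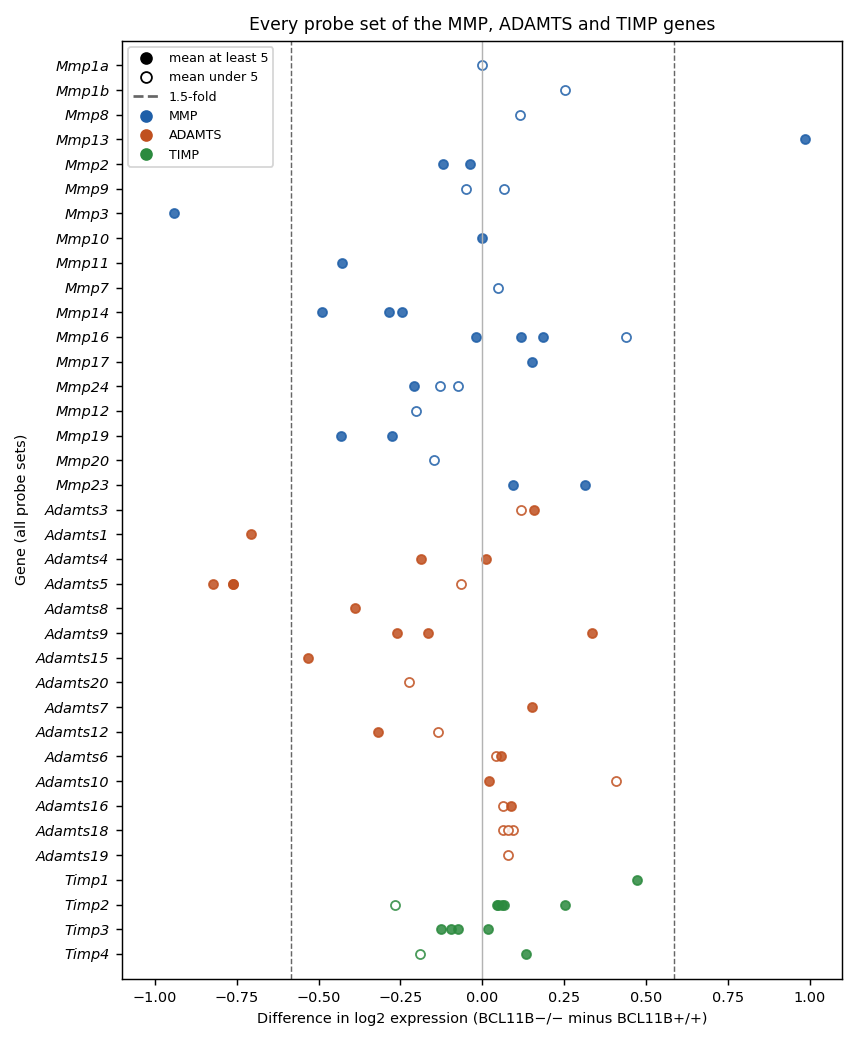
Log2 difference (*BCL11B*−/− minus *BCL11B*+/+, horizontal axis) for each of the 70 probe sets of the 37 genes (vertical axis), filled where the mean was at least 5, with dashed lines at 1.5-fold. Beyond the lines lie *Mmp13* on the right and *Mmp3*, *Adamts1* and 3 of the 4 probe sets of *Adamts5* on the left, whose remaining probe set is dim and lies near 0.

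The aggrecanase and versicanase group held the other lower genes. *Adamts5*, the main aggrecanase of mouse cartilage, which also cuts versican, read 10.47 in *BCL11B*+/+ and 9.65 in *BCL11B*−/− MEFs. This is a difference of −0.82 or 1.77-fold lower. Its other bright probe sets gave 10.13 and 9.37 (−0.76) and 8.93 and 8.16 (−0.76), and the 3 agree within 1 SD of the probe sets. The remaining probe set was dim, with 2.34 and 2.27. *Adamts1*, a versican-cutting protease known from ovary and blood vessels, read 10.79 and 10.09, a difference of −0.71 or 1.63-fold lower on 1 probe set. *Adamts15*, which also cuts versican, came close to the rule with 10.01 and 9.48 (−0.53, 1.45-fold lower). *Adamts8* read 5.35 and 4.96 (−0.39). Its second value was under the limit of 5, so it was counted through its level in *BCL11B*+/+ MEFs. *Adamts9*, whose product keeps versican turnover going in embryos, gave −0.16 on its brightest probe set (9.37 and 9.20) and −0.26 and 0.34 on the others, so its sign depends on the probe set. *Adamts4*, aggrecanase 1, was the highest of the group with 0.010 (7.29 and 7.30), and −0.19 on its other probe set. Of the 6 measured genes of the group 5 were below 0 and 2 were past 1.5-fold, with a median of −0.46. The 5 include *Adamts9*, by its brightest probe set, and *Adamts8*, on whose value the median also rests. *Adamts20* was under the limit with 4.39 and 4.17.

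None of the remaining ADAMTSs reached 1.5-fold. *Adamts3*, a procollagen N-proteinase that also acts on the lymphatic growth factor VEGFC, read 7.06 and 7.22 (0.16), the highest of all measured ADAMTSs. *Adamts12* and *Adamts7* can cut the cartilage protein COMP. *Adamts12* read 8.74 and 8.42 (−0.32), and *Adamts7* 5.17 and 5.32 (0.15). *Adamts6*, *Adamts10* and *Adamts16* differed by 0.059, 0.022 and 0.087. *Adamts10*, which binds fibrillin microfibrils, had a dimmer probe set at 0.41. *Adamts18* and *Adamts19* lay between 2.41 and 3.57 on all their probe sets. *Adamts2*, *Adamts13*, *Adamts14* and *Adamts17* were not analysed here.

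None of the 4 TIMPs was past 1.5-fold. *Timp1*, an inducible inhibitor of most soluble MMPs, read 11.74 in *BCL11B*+/+ and 12.22 in *BCL11B*−/− MEFs, a difference of 0.47 or 1.39-fold, on 1 probe set. *Timp1* is X-linked, and the arrays differed in *Xist*; the median difference of 396 other X-linked genes was 0.031, and the part of embryo sex in the *Timp1* value was not tested. *Timp2*, which blocks MMPs and also helps *Mmp14* to open proMMP2, was bright and alike on both arrays. Its brightest probe set read 12.45 and 12.49 (0.046), and its 5 probe sets past 5 ran from 0.046 to 0.25. *Timp3*, the matrix-bound TIMP, read 10.55 and 10.48 (−0.073), with its 4 probe sets from −0.12 to 0.016. *Timp4* was dim, with 5.20 and 5.33 (0.13) and −0.19 on a probe set under the limit. On the brightest probe sets *Timp1* was therefore 0.43 log2 units farther up than *Timp2* and 0.72 farther up than *Mmp14*. Both gaps depend on the probe set, since others gave up to 0.25 for *Timp2* and −0.49 for *Mmp14*.

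**Figure D3:**
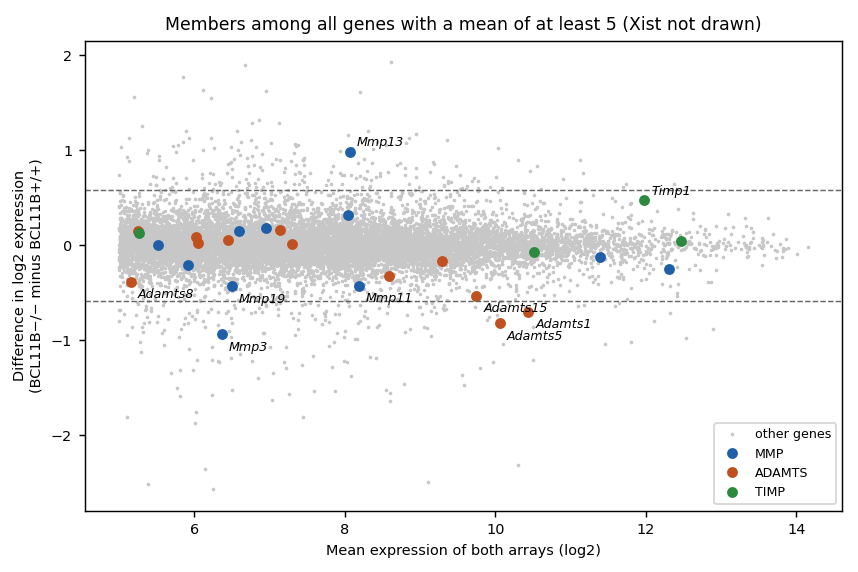
Difference in log2 expression (*BCL11B*−/− minus *BCL11B*+/+, vertical axis) against the mean of both arrays (horizontal axis, log2) for 12331 genes with a mean of at least 5 except *Xist*, with members in colour and dashed lines at 1.5-fold. *Adamts5* (−0.82) and *Adamts1* (−0.71) lie at means of 10.06 and 10.44, and *Mmp3* (−0.94) and *Mmp13* (0.99) at means of 6.36 and 8.06.

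The study ranked genes by weighted average difference, which multiplies the log2 difference by the relative expression level and so favours bright genes. By this score *Mmp13* ranked 37th from the top and *Adamts5* 47th from the bottom of 18193 genes, so each was among the 50 genes of its side here. Only genes on probe sets that name 1 gene were ranked. The study's own list was not rebuilt, so membership in it was not tested. *Adamts1* ranked 65th and *Mmp3* 166th from the bottom. *Timp1*, short of 1.5-fold, ranked 84th from the top. For this score each gene was placed by whichever probe set scored farthest from 0, which for these 5 genes was also the brightest one. By the plain difference, over the 12331 measured genes only, *Mmp3* came before *Adamts5* and *Adamts1*, at 73, 100 and 150 from the bottom.

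*Adamts1* and *Adamts5* are next to each other on chromosome 16 in the RefSeq order of protein-coding genes (GRCm38.p6), and both were past 1.5-fold lower. Of the 10 genes that flank the pair, 5 on each side, 9 were measured. They ran from −0.087 to 0.21, with none past 1.5-fold, and *App* and *N6amt1* gave 0.021 and 0.13. *Adamts15* and *Adamts8*, neighbours on chromosome 9, were also both below 0, with −0.53 and −0.39. Of 8 measured genes around that pair, 7 were between −0.24 and 0.018, and *Opcml* was lower with −0.82 (5.74 and 4.92). The MMP cluster on chromosome 9 looked different. *Mmp13* at its one end and *Mmp3* 3 genes further on differed in opposite directions, and *Mmp12* and *Mmp1b* between them were under the limit. Of 9 measured genes around the cluster, *Casp12* was higher with 0.65 and the other 8 ran from −0.31 to 0.043.

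**Figure D4:**
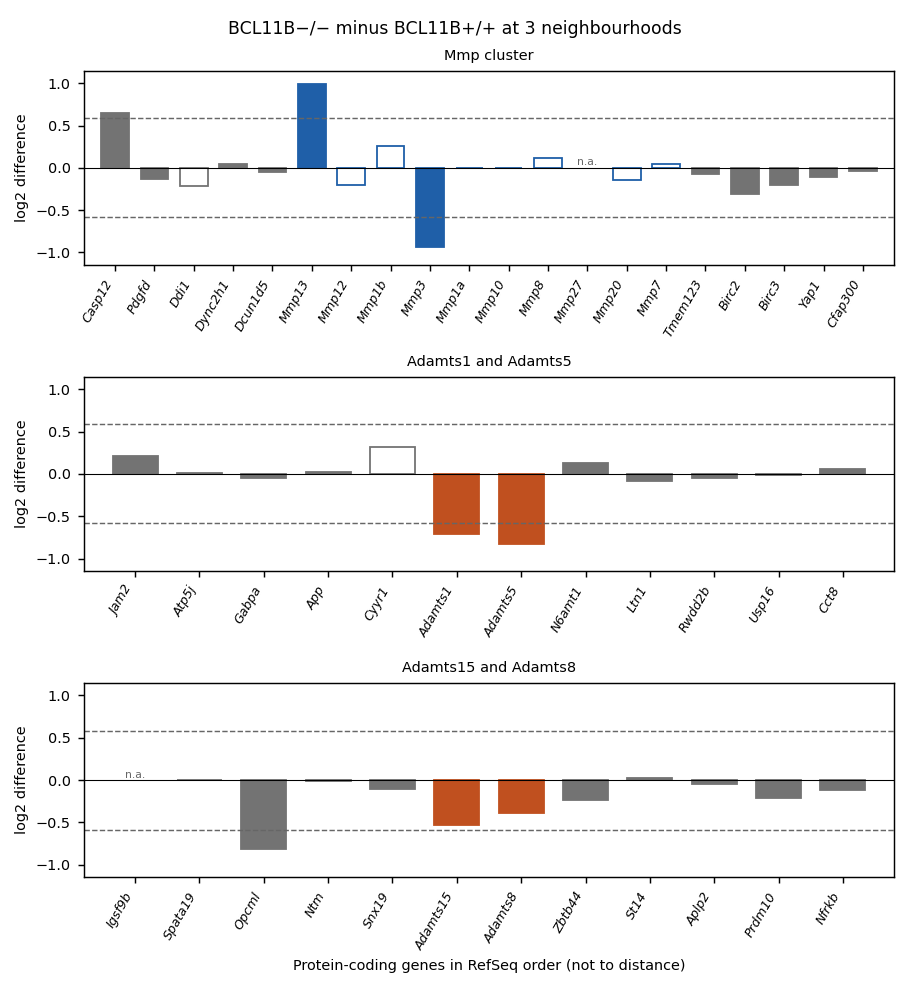
Difference in log2 expression (*BCL11B*−/− minus *BCL11B*+/+, vertical axes) for the genes of 3 neighbourhoods in RefSeq order (horizontal axes, not to distance), with members in colour, flanking genes in grey, open bars for means under 5, n.a. for genes not analysed here and dashed lines at 1.5-fold. *Adamts1* and *Adamts5* (−0.71 and −0.82) are both lower between neighbours that stay inside the dashed lines, and *Mmp13* (0.99) and *Mmp3* (−0.94) point in opposite directions.

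Genes that open, block, bind or share the work of these proteases were read from lists, in counts of measured genes. Of 5 plasminogen activation genes 1 was higher and none was lower. This was *Plau*, urokinase, which makes plasmin at the cell surface, with 4.88 and 5.85 (0.97). It was under the limit of 5 in *BCL11B*+/+ MEFs and was counted through its level in *BCL11B*−/− MEFs. With the mean of its 2 probe sets it fell under the limit and was no longer counted. Of 6 convertases and astacin-type proteases none was past the rule, and they ran from −0.52 for *Pcsk5* to 0.11 for *Pcsk7*. *Furin*, which opens *Mmp14* and ADAMTS proenzymes, read 7.79 and 7.78. Of 10 other inhibitors and clearance receptors 1 was lower, the testican gene *Spock2* with −0.68 (5.34 and 4.66, the second under the limit, and −0.40 as the mean of 2 probe sets), and none was higher. *Reck*, the membrane inhibitor of MMPs, gave −0.12.

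As regulators of MMP transcription, only a list of inducers with their receptors and the AP-1 genes were read. No measured gene of these lists was past 1.5-fold. Inducers and their receptors (7 measured) ran from −0.48 for *Il1r1*, the interleukin-1 receptor, to 0.15 for *Bsg*. The ligands *Il1a*, *Il1b*, *Tnf* and *Osm* were all under the limit. The 6 measured AP-1 genes ran from −0.45 for *Fos* (8.95 and 8.50) to 0.19 for *Junb*, with a median of −0.035.

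Among related proteases, 2 of 10 ADAM sheddases were lower, *Adam8* with −0.72 and *Adam33* with −0.59, and none was higher. *Adam8* is also made by macrophages, whose markers were lower on the same array, and their part in it was not tested. Of 4 cysteine cathepsins 1 was lower. This was *Ctsk*, the collagen-cutting protease of osteoclasts and fibroblasts, with 10.58 and 9.35 (−1.23, 2.34-fold lower), and *Ctss*, known from macrophages, gave −0.57. Of 8 ADAMTS-like proteins and cofactors, which lack a protease domain, *Adamtsl3* was higher with 0.90 (6.99 and 7.89) and none was lower. *Fbln1*, a cofactor of *Adamts1*, gave −0.46.

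Of 13 measured matrix substrates 3 were higher, 2 were lower and 8 were neither. The higher ones were *Comp* (1.63), *Col2a1* (1.29) and *Hapln1* (1.03), which are also on the chondrocyte list. The lower ones were *Dcn*, decorin, with −0.88 and *Eln*, elastin, with −0.65 (−0.45 as the mean of 2 probe sets). Aggrecan (*Acan*), the substrate of *Adamts4* and *Adamts5*, read 5.52 and 5.97 (0.45). Versican (*Vcan*), cut by *Adamts1*, *Adamts5*, *Adamts9* and *Adamts15*, read 13.07 and 12.81 (−0.26). The collagen genes *Col1a1*, *Col1a2* and *Col3a1*, whose products *Mmp13* and *Mmp14* cut, gave −0.11, −0.090 and −0.13. These are mRNA levels only. Protein, activation and cleavage were not measured on the arrays.

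**Figure D5:**
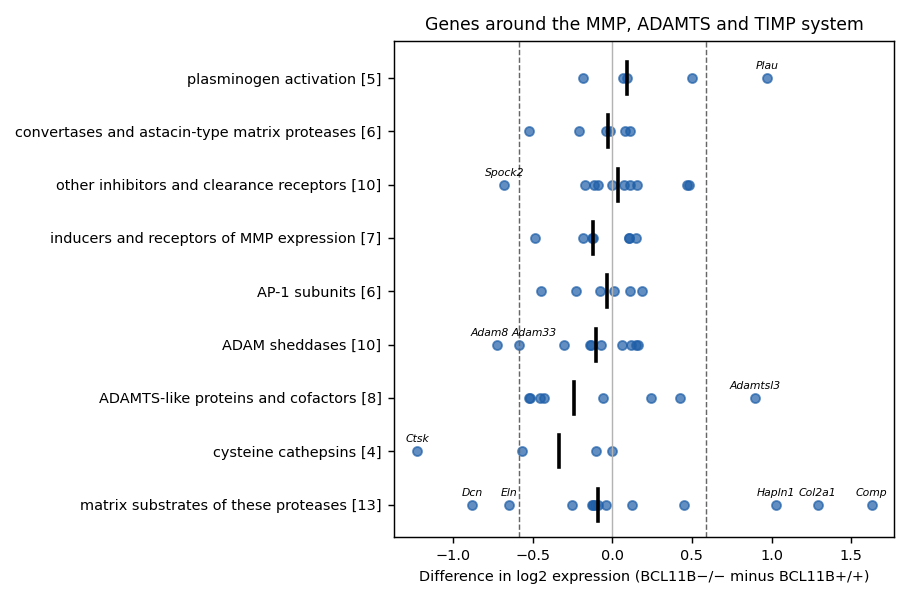
Log2 difference (*BCL11B*−/− minus *BCL11B*+/+, horizontal axis) for measured genes of 9 related lists (vertical axis, number of genes in brackets), with black bars at list medians and dashed lines at 1.5-fold. Named points are past the lines, from *Ctsk* (−1.23) to *Comp* (1.63), and the AP-1 genes all lie between them.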

How the data were processed

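Total RNA (100 ng) of *BCL11B*+/+ and *BCL11B*−/− MEFs was labelled and hybridized by the authors to 1 Affymetrix mouse genome array each. The deposited values are log2 expression, which the authors made from probe intensities by robust multi-array averaging (RMA). The submitters' processing notes name R 3.0.3. RMA equalizes the arrays, so a shift in total mRNA would be lost, and dim differences shrink toward 0. Depth does not apply, and the number of arrays limits the precision. The table held 45101 probe sets, of which the platform annotation paired 34945 with 1 gene, and all 37 members matched RefSeq by Entrez identifier. A genome build for the arrays is not given in the sources used here, so RefSeq (GRCm38.p6) was used for names, gene order and promoter sequences.

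Each gene was read on its brightest probe set, by the mean of both arrays, except for the ranks by weighted average difference, which took the probe set that scored farthest from 0. Counts used genes with a mean of at least 5 and 1.5-fold, and no test was run on 1 array per genotype. The reading of gene differences was checked on simulated data, made from the *BCL11B*+/+ array with planted differences. The added noise had the SD of the probe sets and held no variation between cultures. The check therefore does not measure how reliable the counts are. Alternatives were other choices of probe set, other limits and size rules, and a loess fit (span 0.4). Every member is given; of each related list, up to 3 genes in each direction past 1.5-fold, or the extremes, are named. *Reck*, *Furin*, *Ctss*, *Fbln1*, *Acan*, *Vcan*, the 3 collagen genes and the flanking genes were named after their values were seen. Members and lists were chosen with earlier results of these data known. Python 3.11.15, numpy 2.4.6, pandas 2.3.3, statsmodels 0.14.6 and matplotlib 3.10.9 were used.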

Additional observations from a re-analysis of the deposited data

How the results depend on the processing

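With 1 array per genotype no replicate could be left out. No paired analysis was possible because each genotype has 1 sample. *Mmp13* remained the higher gene, and *Mmp3*, *Adamts1* and *Adamts5* the lower genes, with the mean of all probe sets, without suffixed probe sets and without the filter. The same held after subtraction of a loess fit, which ranged from −0.011 to 0.014. Most of this was fixed by construction. *Mmp13*, *Mmp3* and *Adamts1* have 1 probe set each, without a suffix, so the choice of probe set could not change them. *Adamts5* has no suffixed probe set, so of these choices only the mean could change it. Removing the filter could not drop a gene, and so small a fit could not bring these genes inside 1.5-fold. With a mean of at least 7 *Mmp3* was left out by construction and 2 lower genes remained. By construction of the size rule, 3 members were higher and 8 lower at 1.2-fold, and 0 were higher and 0 lower at 2-fold. The ADAMTS median was −0.32 with a mean of at least 7, where 7 genes remained. Without the filter the MMP median was 0 and the ADAMTS median 0.010. Of 81 alternative values of single members 77 moved by less than 1 SD of the probe sets. The others, whose cause was not tested, were *Adamts10* 0.22, *Adamts5* −0.60 and *Timp4* −0.029 as the mean of all probe sets, dim ones included, and *Mmp23* 0.095 without suffixed probe sets. Most of the 81 values could not move that far, so their number does not measure stability. The loess fit was too small, and members with 1 probe set have no other mean. Leaving out suffixed probe sets could change only *Mmp2* and *Mmp23*, whose brightest probe set has a suffix. Of 45 alternative medians of related lists 6 moved by more than 1 SD. With a mean of at least 7, that of ADAMTS-like proteins and cofactors went from −0.24 to 0.24 over 5 genes. Signal near background limits the dimmest measured members, *Adamts8*, *Adamts7*, *Timp4* and *Mmp10*, with means from 5.15 to 5.52, and 10 members had no value above the limit.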
